A study of Mus musculus with 66 samples.

Results

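DNA replication in S phase depends on a set of genes that load the replicative helicase, build and stabilise the fork, supply nucleotides and repackage the copied DNA. The expression of 41 such genes was followed in mouse neural progenitors made from embryonic stem cells. They were chosen by symbol from a table of 24410 genes, all 41 symbols were found, and each gene passed the filter on low values. By role they were 10 genes for licensing of origins (Orc1, Orc6, Cdc6, Cdt1, Mcm2 to Mcm7), 6 for activation of the helicase (Mcm10, Cdc45, Gins1 to Gins4), 7 for DNA polymerases and primase (Pola1, Pola2, Prim1, Pold1, Pold2, Pole, Pole2) and 5 for the sliding clamp and its loader (Pcna, Rfc2 to Rfc5). The rest were 4 genes for binding of single strands, flap removal and ligation (Rpa1, Rpa2, Fen1, Lig1), 4 for nucleotide supply (Rrm1, Rrm2, Tyms, Tk1), 2 for chromatin assembly (Chaf1a, Chaf1b) and 3 regulators of S phase entry (Ccne1, Ccne2, E2f1).

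Cells were grown in bFGF, given the GSK3 inhibitor CHIR99021 on day 2, then retinoic acid and the Smoothened agonist SAG from day 3, and kept in SAG alone from day 5. They were fixed with glyoxal, stained, and sorted by flow cytometry into the progenitor domains p1, p2 and pM and into NFIA-positive (NFIAp) and NFIA-negative (NFIAn) fractions, before sequencing of polyA RNA. The 66 libraries held 29 of the mutant genotype (MUT) and 37 of wild type (WT), and fell into 26 groups by genotype, day (D5, D7, D9 or D11), domain and NFIA gate, of which 15 had 3 libraries, 10 had 2 and 1, MUT D9 p2, had 1. All MUT libraries, and all WT libraries of D5 and D7, were NFIAn. WT D9 had NFIAn libraries of every domain and NFIAp libraries of p2 and pM, and all WT D11 libraries were NFIAp. At D11 genotype and gate therefore cannot be told apart, and nor can day and gate when WT D11 is set against WT D5. The labels name neither the mutated gene nor separate cultures behind the replicate numbers, so p-values measure the spread between libraries, which may be technical.

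The origin recognition complex, of which Orc1 and Orc6 are subunits, recruits Cdc6 and Cdt1, and together they load the ring of Mcm2 to Mcm7 onto DNA in G1. In S phase Cdc45 and the GINS complex join that ring to make the active helicase, polymerase alpha with primase starts each strand, and polymerases delta and epsilon extend it on the clamp encoded by Pcna. E2F transcription factors bind the promoters of many of these genes and drive them as cells leave G1, and progenitors of the spinal cord lengthen their cycle and leave it as neurons and glia are born.

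The promoters of Cdc6, Mcm6 and Lig1 are shown because each holds an E2F word and each gene fell in every WT domain over the time course, and that of Tk1 because it holds none although its transcript fell too. They are RefSeq windows of GRCm38.p6, from 250 bases before to 50 bases after an annotated start, at chr11:98907901-98908200, plus strand, for Cdc6, at chr1:128359656-128359955, minus strand, for Mcm6, at chr7:13278576-13278875, plus strand, for Lig1, and at chr11:117825965-117826264, minus strand, for Tk1. They are given 5′ to 3′ on the gene's strand, with E2F words in capitals.
Cdc6: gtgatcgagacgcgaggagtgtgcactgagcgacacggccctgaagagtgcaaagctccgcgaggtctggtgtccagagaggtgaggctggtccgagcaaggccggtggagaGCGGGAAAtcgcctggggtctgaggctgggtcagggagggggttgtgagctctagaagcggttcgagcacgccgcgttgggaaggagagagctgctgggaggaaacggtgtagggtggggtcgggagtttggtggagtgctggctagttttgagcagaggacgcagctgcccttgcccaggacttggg
Mcm6: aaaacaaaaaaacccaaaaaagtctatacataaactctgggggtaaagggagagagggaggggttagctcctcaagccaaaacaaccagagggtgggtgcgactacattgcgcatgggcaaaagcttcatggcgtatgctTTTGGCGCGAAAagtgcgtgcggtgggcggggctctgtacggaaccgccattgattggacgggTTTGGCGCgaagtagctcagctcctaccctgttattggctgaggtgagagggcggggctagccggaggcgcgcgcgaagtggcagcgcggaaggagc
Lig1: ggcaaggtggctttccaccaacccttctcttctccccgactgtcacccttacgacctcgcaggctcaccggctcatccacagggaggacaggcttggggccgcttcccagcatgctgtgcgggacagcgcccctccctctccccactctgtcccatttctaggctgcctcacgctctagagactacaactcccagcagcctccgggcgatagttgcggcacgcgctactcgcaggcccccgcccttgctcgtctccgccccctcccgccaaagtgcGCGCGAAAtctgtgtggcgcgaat
Tk1: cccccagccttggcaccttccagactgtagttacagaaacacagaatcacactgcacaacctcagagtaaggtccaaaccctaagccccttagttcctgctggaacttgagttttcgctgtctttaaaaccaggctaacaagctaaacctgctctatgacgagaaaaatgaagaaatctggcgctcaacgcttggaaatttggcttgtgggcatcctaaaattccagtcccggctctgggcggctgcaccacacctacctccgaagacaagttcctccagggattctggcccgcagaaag

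The words searched on both strands were TTTCCCGC, TTTCGCGC, TTTGCCGC and TTTGGCGC, each of 8 bases, and matches on opposite strands can overlap, as the first pair does in Mcm6. Of the 41 genes, 34 had a promoter in the table, the exceptions being Gins1, Gins2, Gins4, Pole, Ccne2, Rfc2 and Mcm4. A word stood in the promoter of 13 of the 34 genes (38.2%), against 2.26% of all 32851 promoters in the table and 4.39% of the 11731 tested genes that had one. A gene with more than 1 window was counted if any of them held a word. The other Lig1 windows, at chr7:13276925-13277224 and chr7:13279015-13279314, held none, nor did the other Mcm7 window, at chr5:138171217-138171516. These were 7 of the 9 licensing genes with a promoter (Cdc6, Cdt1, Orc1, Mcm3, Mcm5, Mcm6 and Mcm7), 3 of 6 polymerase genes (Pola1, Pold1, Pole2), and Gins3, Rfc3 and Lig1. No window of the 4 nucleotide supply genes, of the chromatin assembly genes or of Ccne1 and E2f1 held one of these words. The E2f1 window, chr2:154569377-154569676 on the minus strand, lay inside the gene, whose start in GENCODE is at 154569892. Sequence before that start was not searched, so E2f1 is not shown to lack a word there. The windows shown for Cdc6 and Lig1 lay inside their genes too, whose GENCODE starts are at 98907801 and 13277283. So did those of Mcm7, whose GENCODE start is at 138172422. Their words therefore lie after the GENCODE start. Positions here are counted from the RefSeq start of each window. In Cdc6 the word began 138 bases before the RefSeq start, and in Mcm6 words began 110, 106 and 47 bases before it. In Lig1 the word began 26 bases after it. The shorter word CCAAT was found for 58.8% of the genes, against 42.7% of tested genes.

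Values are normalised counts as deposited, not divided by gene length, so levels are compared between libraries and not between genes. Divided by each library's scale, all values came out as whole reads within 0.01, and libraries held 8.74 to 30.8 M of them. The 18 libraries of replicate 3 at D7 and of replicates 2 and 3 at D9, in both genotypes, stood apart, with normalised totals of 26.6 to 40.2 M, against 17.8 to 25.5 M in the remaining 48. Of the domain markers, Vsx1 and Foxn4 were higher in p2 than in p1, Dbx1 and Dbx2 lower, and Olig1 and Olig2 higher in pM than in p2, in each genotype (limma adjusted p under 0.05 for each). Across the markers of neural progenitors, 0 of 10 genes were at 0 in any library, and of the 14 neuronal markers 2 were at 0 in some library.

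Over the 66 libraries the median Pearson correlation of log2 values over their 820 pairs was 0.72, a description in which genes share each library's depth, day and scaling. The group with the highest mean was at D5 for 30 of 41 genes, and the lowest was at D11 for all of them, in MUT for 7 and in WT for 34. WT D11 pM was the lowest group for 26 genes. E2f1, an activator E2F, stood lowest, with a median correlation of 0.03 with the other 40, followed by Ccne1 at 0.35 and Gins1 at 0.46. Cdc6 had the highest, 0.84. The 11 genes with their highest group mean after D5 were Gins1, Gins2, Prim1, Pcna and Rfc3 at D7 in p1, and Rfc2, Rfc4, Tyms, Ccne1, Ccne2 and E2f1 in the single MUT D9 p2 library. These peaks rest on libraries of raised total, since the MUT D9 p2 library and D7 replicate 3 are among those 18. In D7 replicate 3 the 5 genes that peaked at D7 were higher than in replicates 1 and 2 by 0.77 (Rfc3) to 1.48 (Gins2) on the log2 scale.

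At WT D11, set against WT D5, the replication genes fell in every domain. By limma, on log2 of the normalised count plus 1 and with an adjusted p under 0.05, 36 of 41 were lower in p1 at D11, against 13.7% of all tested genes, 30 in p2, against 11.5%, and 34 in pM, against 9.69%. Median log2 differences of the 41 were -1.77, -1.44 and -1.84 in p1, p2 and pM, where that of all tested genes was 0, 0.04 and 0.01. E2f1 in p1 was the single gene called higher, against 14% of all tested genes. Each domain had 2 libraries at D11, and at D5 there were 3 in p1 and p2 and 2 in pM. Groups this small can separate without a true difference. Here and in the other comparisons the share of all tested genes whose libraries did not overlap was not counted. These are sorted pools, in which fewer cycling cells and less of a transcript per cell cannot be told apart.

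Of the 10 licensing genes 10 fell in p1, 9 in p2 and 9 in pM, with median log2 differences of -2.49, -1.96 and -2.08. Cdc6, an ATPase that helps load the Mcm ring at origins, had 421 and 524 in WT D11 p1 libraries, against 3445, 2922 and 3349.5 in WT D5 p1 libraries. Its values were 441 and 680.1 in WT D11 p2 libraries, against 3526, 2180.1 and 2835 in WT D5 p2 libraries, and 257 and 432 in WT D11 pM libraries, against 1968 and 2559 in WT D5 pM libraries. No D11 library reached the lowest D5 library in any domain, and Cdc6 had log2 differences of -2.78 ± 0.30 (limma adjusted p = 3.97e-10), -2.35 ± 0.30 (limma adjusted p = 3.29e-08) and -2.75 ± 0.33 (limma adjusted p = 8.55e-09) in p1, p2 and pM. Mcm6, a subunit of the ring, had 1251 and 2471 in WT D11 p1 libraries, against 13646, 8112 and 11896 in WT D5 p1 libraries. Mcm6's log2 difference was -2.64 ± 0.27 (limma adjusted p = 1.53e-10). Mcm3, another subunit, had 989 and 2079 in WT D11 p1 libraries, against 11349.7, 9145 and 9843 in WT D5 p1 libraries. Mcm3's log2 difference was -2.81 ± 0.34 (limma adjusted p = 8.98e-09). For both genes the days did not overlap, and WT D11 p1 replicate 2 was below replicate 3. Orc1, the largest subunit of the origin recognition complex, had 87 and 154 in WT D11 pM libraries, against 655 and 816 in WT D5 pM libraries, and fell by 2.65 ± 0.47 on the log2 scale (limma adjusted p = 2.88e-05). Orc6, the smallest subunit, did not pass everywhere, and had 2872 and 3700.4 in WT D11 p1 libraries, against 6289, 8316 and 6944 in WT D5 p1 libraries. Orc6's log2 difference was -1.13 ± 0.44 (limma adjusted p = 0.0499). That call was lost when any of the 5 libraries was left out (limma adjusted p from 0.0636 to 0.251), and Orc6 was not called in p2 or pM, at -1.10 ± 0.44 (limma adjusted p = 0.0595) and -1.22 ± 0.48 (limma adjusted p = 0.0675). Apart from leaving out a library, Orc6 was called in p2 under 8 and in pM under 7 of 10 other settings, among them TMM scaling (limma adjusted p = 0.0349 and 0.0357). Some of these settings, such as leaving out the 18 libraries of raised total, kept the differences at -1.10 and -1.22. They changed only the spread these were tested against.

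Among the genes that activate the helicase, Mcm10 and Cdc45 fell in every domain, Gins3 too, Gins4 in p1, and Gins1 and Gins2 in none. The median log2 differences of the 6 were -1.55, -1.20 and -1.52 in p1, p2 and pM. Mcm10, which helps fire the loaded helicase, had 88.9 and 279 in WT D11 pM libraries, against 1274 and 1646 in WT D5 pM libraries, a log2 difference of -3.19 ± 0.45 (limma adjusted p = 3.49e-07) that was the largest fall of the 41 genes in that domain. Cdc45 had 449 and 785 in WT D11 p1 libraries, against 3573, 2266 and 3414 in WT D5 p1 libraries. Cdc45's log2 difference was -2.35 ± 0.27 (limma adjusted p = 2.24e-09). Gins3, a GINS subunit, had 233 and 582 in WT D11 p1 libraries, against 1534, 901 and 1197 in WT D5 p1 libraries, a log2 difference of -1.68 ± 0.37 (limma adjusted p = 0.000439) that was not called without D11 replicate 2 (limma adjusted p = 0.1). Gins1 had 1209 and 1182 in WT D11 p1 libraries, against 2102, 2377 and 2213 in WT D5 p1 libraries, and its log2 difference of -0.90 ± 0.43 (limma adjusted p = 0.119) did not pass the test, as it did not in p2 or pM. The Gins1 libraries of D11 lay below those of D5 all the same, and in p1 Gins1 was called under 5 of 10 other settings, with a limma adjusted p of 0.0119 without the 18 libraries of raised total. Those 18 are of D7 and D9. Leaving them out kept the difference at -0.90 and changed only the spread it was tested against.

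All 7 polymerase genes fell in p1 and pM and 5 of them in p2, with median log2 differences of -1.74 in p1, -1.70 in p2 and -2.26 in pM. Pold1, the catalytic subunit of polymerase delta, had 265 and 1194 in WT D11 p1 libraries, against 5656, 3235 and 4194 in WT D5 p1 libraries. Pold1's log2 difference was -2.91 ± 0.42 (limma adjusted p = 4.4e-07). The D11 pair was wide, with replicate 2 the lower, and both were below every D5 library. Pole, the catalytic subunit of polymerase epsilon, had 122 and 84.9 in WT D11 pM libraries, against 775 and 641 in WT D5 pM libraries. Pole's log2 difference was -2.78 ± 0.32 (limma adjusted p = 3.7e-09). Its partner Pole2 had 123 and 306 in WT D11 pM libraries, against 972 and 1052 in WT D5 pM libraries. Pole2's log2 difference was -2.37 ± 0.27 (limma adjusted p = 4.13e-09). The genes not called in p2 were Prim1, the catalytic primase subunit, and Pold2, an accessory subunit of polymerase delta, with log2 differences of -0.73 and -0.66.

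Of the 5 clamp and loader genes 4 fell in p1, 3 in p2 and 4 in pM, with median log2 differences of -1.16, -1.17 and -1.54. Pcna, the clamp, had 5074 and 5058 in WT D11 pM libraries, against 14522 and 15005 in WT D5 pM libraries. Pcna's log2 difference was -1.54 ± 0.40 (limma adjusted p = 0.00394). Rfc3, a loader subunit, had 2676 and 3757 in WT D11 p1 libraries, against 7664, 7951 and 7223 in WT D5 p1 libraries, with a log2 difference of -1.26 ± 0.34 (limma adjusted p = 0.00356) that was not called without D11 replicate 2 (limma adjusted p = 0.0865). Rfc4, another loader subunit, had 3014 and 3055 in WT D11 pM libraries, against 8307 and 9966 in WT D5 pM libraries and a log2 difference of -1.58 ± 0.46 (limma adjusted p = 0.0102), not called without D11 replicate 2 or 3 or D5 replicate 3 (highest limma adjusted p = 0.087). For all of these the D11 and D5 libraries named did not overlap. Rfc5 had log2 differences of -2.05, -1.44 and -1.78 in p1, p2 and pM.

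All 4 genes for single-strand binding, flap removal and ligation were called lower in every domain. Lig1, which seals Okazaki fragments, had 518 and 1642 in WT D11 p1 libraries, against 6835, 5539 and 5904 in WT D5 p1 libraries. Lig1's log2 difference was -2.72 ± 0.31 (limma adjusted p = 2.36e-09). Rpa1, the large subunit of the single-strand binding complex, had 2571 and 3096 in WT D11 p1 libraries, against 10869, 9954 and 11655 in WT D5 p1 libraries. Rpa1's log2 difference was -1.94 ± 0.19 (limma adjusted p = 5.6e-11). Rpa2, its middle subunit, had 1830.5 and 2857 in WT D11 p1 libraries, against 7061, 6309 and 7461 in WT D5 p1 libraries. Rpa2's log2 difference was -1.60 ± 0.25 (limma adjusted p = 1.89e-06). The days did not overlap for any of them. Fen1, the flap nuclease, was called too, but 84% of its exon bases are shared with genes on the opposite strand, and whether counting used strand is not given in the sources used here. The same holds for 71% of Gins2 and 34% of Chaf1a.

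Of the nucleotide supply genes 3 of 4 were called lower in each domain, and Tyms in none. Tk1, which salvages thymidine, had 1034 and 1574 in WT D11 p1 libraries, against 5579, 6789 and 6772 in WT D5 p1 libraries. Tk1's log2 difference was -2.32 ± 0.28 (limma adjusted p = 1.14e-08). Rrm1, the large subunit of ribonucleotide reductase, had 2702 and 3959 in WT D11 p1 libraries, against 10926, 8009.6 and 8643 in WT D5 p1 libraries. Rrm1's log2 difference was -1.48 ± 0.24 (limma adjusted p = 5.6e-06). Rrm2, the S phase small subunit, had 3272 and 5921 in WT D11 pM libraries, against 17968 and 26902 in WT D5 pM libraries. Rrm2's log2 difference was -2.32 ± 0.32 (limma adjusted p = 2.18e-07). In all 3 the days did not overlap. Tyms, which makes thymidylate, had 3023 and 3229 in WT D11 p1 libraries, against 5587, 7609.7 and 6593 in WT D5 p1 libraries, and its log2 difference of -1.07 ± 0.49 (limma adjusted p = 0.102) missed the threshold, although its D11 libraries lay below those of D5. In p1 Tyms was called under 5 of 10 other settings, with a limma adjusted p of 0.0114 without the 18 libraries of raised total. Leaving these out kept the difference at -1.07 and changed only the spread it was tested against.

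Both chromatin assembly genes fell in every domain. Chaf1a, the large subunit of the CAF-1 histone chaperone, had 358 and 358 in WT D11 pM libraries, against 1779 and 2174 in WT D5 pM libraries, with a log2 difference of -2.46 ± 0.33 (limma adjusted p = 1.27e-07), and Chaf1b, its middle subunit, had 959 and 1674 in WT D11 pM libraries, against 4661 and 6573 in WT D5 pM libraries, with one of -2.13 ± 0.29 (limma adjusted p = 2.32e-07). The 3 regulators differed. Ccne2, a cyclin E that partners Cdk2 at S phase entry, fell in each domain, and in pM had 290.3 and 492 in WT D11 pM libraries, against 1676 and 1433 in WT D5 pM libraries. Ccne2's log2 difference was -2.03 ± 0.33 (limma adjusted p = 5.14e-06). Ccne1, the other cyclin E, had 474 and 1479.6 in WT D11 p1 libraries, against 1045, 4059.8 and 5125 in WT D5 p1 libraries, groups that overlapped, with a log2 difference of -1.74 ± 0.46 (limma adjusted p = 0.00308) that was not called without D11 replicate 2 (limma adjusted p = 0.258). E2f1 had 417 and 1575 in WT D11 p1 libraries, against 306, 557 and 238 in WT D5 p1 libraries, which overlapped. E2f1's log2 difference was 1.24 ± 0.45 (limma adjusted p = 0.0358). The E2f1 call rested on D11 replicate 3, without which the limma adjusted p was 0.779, and was also lost without D5 replicate 1 or 3. In pM E2f1 had 243 and 182 in WT D11 pM libraries, against 554 and 449 in WT D5 pM libraries, without overlap, and was not called, at -1.24 ± 0.50 (limma adjusted p = 0.0711).

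**Figure D1:**
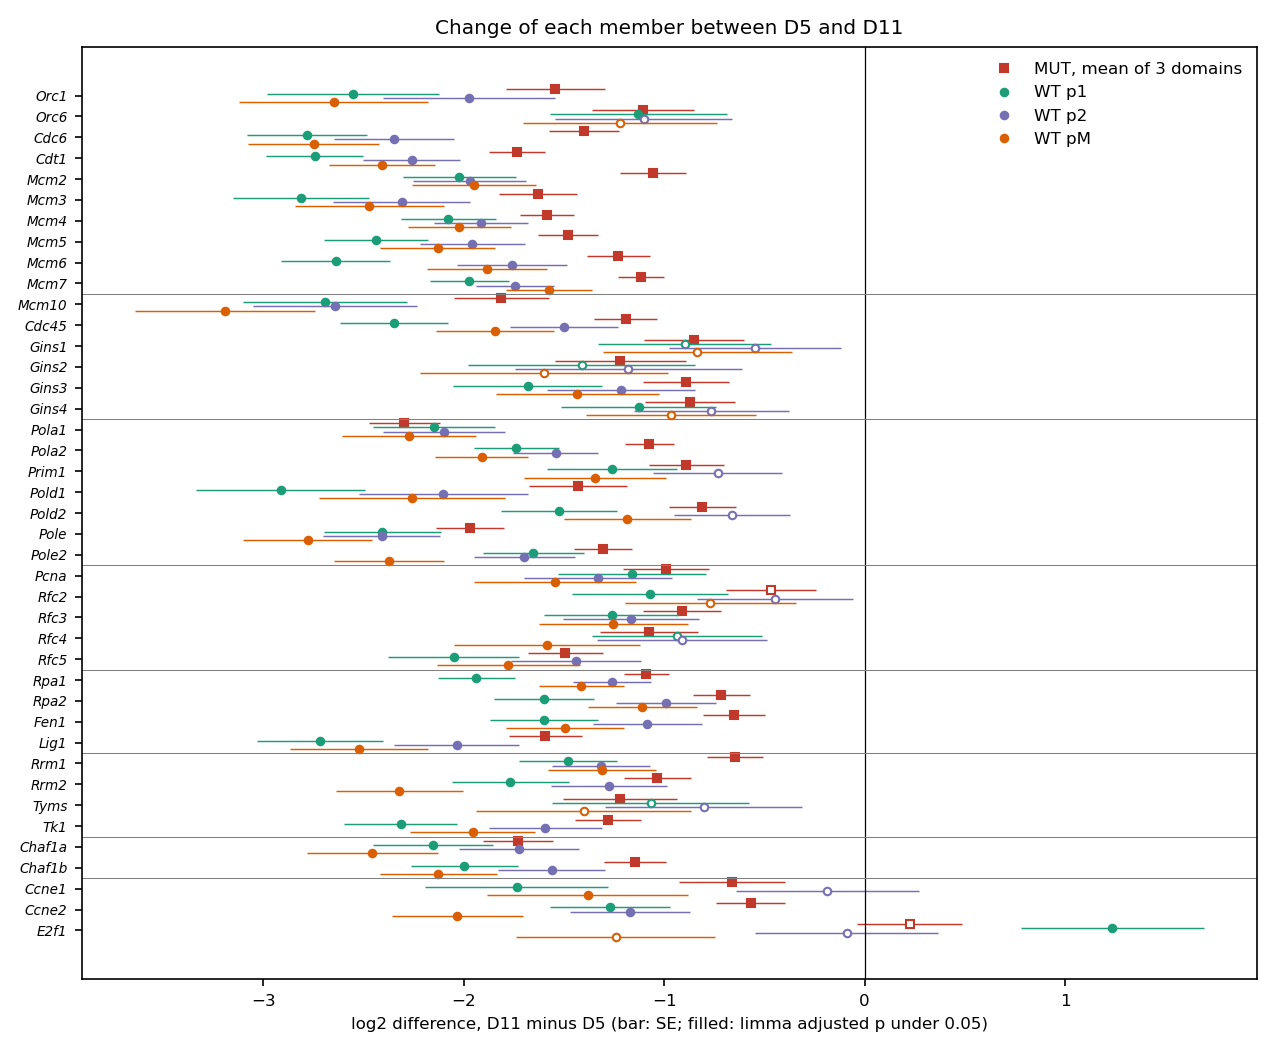
Points are log2 differences of D11 minus D5 for each gene, with bars for the standard error, as MUT over 3 domains (red squares) and WT p1, p2 and pM (circles), filled where the limma adjusted p is under 0.05. In WT 36, 30 and 34 genes are filled to the left of 0 in p1, p2 and pM, and E2f1 in p1 is filled to the right.

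Among 46 further replication genes 32, 30 and 31 were lower in p1, p2 and pM at WT D11, with median log2 differences of -1.43, -1.11 and -1.56 and none higher. Of 24 genes of G2 and M phase 21, 13 and 21 were lower. At WT D11 markers of postmitotic neurons were higher, 13, 14 and 7 of 14. Of all tested genes 14% were higher in p1. In p2 and pM 17.9% and 13.3% of tested genes with a longest coding length under 1500 bases were higher, and 10.3% and 8.07% of longer ones. Summed normalised counts of the neuronal markers were 23683 to 45684 in WT D11 libraries, against 2275 to 13930.0 in WT D5 libraries, with none of the 14 at 0 in all libraries. Mesenchymal markers summed to 1319 to 7474 in WT D11 libraries, against 156 to 806 in WT D5 libraries, with 8 of 10 at 0 in some library. Markers of neural progenitors were higher at D11 as well, and summed to 106720 to 227570 in WT D11 libraries, against 22690 to 38169 in WT D5 libraries. The part of any of these in the fall of the replication genes was not tested.

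Taken in steps of 2 days, WT genes of different roles were called at different steps, and the difference between roles was not tested. At D7 set against D5, 13 of 41 genes were lower, against 9.51% of all tested genes, and 7 of them were licensing genes, with none of the clamp, loader, nucleotide supply or regulator genes. At D9 set against D7, in the NFIAn fraction, 24 genes were lower, against 8.09%, among them 8 licensing and 5 polymerase genes and 1 of the clamp and loader. At D11 set against D9, in the NFIAp fraction of p2 and pM, 27 were lower, against 3.98%, and here 4 of 10 licensing genes were called with 6 of 7 polymerase, 3 of 5 clamp and loader and 4 of 4 nucleotide supply genes. None was higher at any step. The median log2 difference of the 10 licensing genes was -0.61, -0.61 and -0.47 over the 3 steps, and that of the 4 nucleotide supply genes -0.10, -0.45 and -1.07.

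Mcm6 fell at the first step, with a lowest, median and highest value of 3648, 4944 and 6989 in WT D7 libraries, against 6255, 9413 and 13646 in WT D5 libraries. Mcm6's log2 difference was -0.83 ± 0.15 (limma adjusted p = 3.84e-05). The D7 median lay below the lowest D5 library. Lig1 fell too, at 2188, 3683 and 4809.7 in WT D7 libraries, against 5164, 5869 and 6981 in WT D5 libraries. Lig1's log2 difference was -0.79 ± 0.17 (limma adjusted p = 0.000523). At the next step Mcm10 fell, with 155, 419.9 and 649 in WT D9 NFIAn libraries, against 673, 1035 and 1324 in WT D7 libraries. Mcm10's log2 difference was -1.48 ± 0.22 (limma adjusted p = 2.28e-06). Cdt1, the second factor that loads the ring, had 1216, 1619 and 2222 in WT D9 NFIAn libraries and 2075, 2753 and 4942 in WT D7 libraries. Cdt1's log2 difference was -0.91 ± 0.13 (limma adjusted p = 1.12e-06).

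The last step is shown by Tk1 and Pcna. Tk1 had 1930.1 and 1870.0 in WT D11 p2 libraries and 1026 and 1513 in WT D11 pM libraries, against 2798, 5114 and 3638 in WT D9 p2 NFIAp libraries and 4019.6, 3839.6 and 3739 in WT D9 pM NFIAp libraries. Tk1's log2 difference was -1.30 ± 0.20 (limma adjusted p = 9.32e-06). Pcna had 6746 and 6689 in WT D11 p2 libraries and 5074 and 5058 in WT D11 pM libraries, against 8203, 16588 and 12348 in WT D9 p2 NFIAp libraries and 9319.9, 13434 and 12412 in WT D9 pM NFIAp libraries. Pcna's log2 difference was -1.01 ± 0.26 (limma adjusted p = 0.00792). Neither gene overlapped between the days. Without the 18 libraries of raised total, which include D9 replicates 2 and 3, Pcna was at -0.58 and not called (limma adjusted p = 0.158). Rfc4 and Pole fell at this step too, with log2 differences of -1.49 ± 0.30 (limma adjusted p = 0.000528) and -1.43 ± 0.21 (limma adjusted p = 3.18e-06). Tyms was lower here, at -1.27 ± 0.35 (limma adjusted p = 0.0117), a call lost without WT D11 p2 replicate 3 (limma adjusted p = 0.0672), and so was E2f1, at -1.25 ± 0.32 (limma adjusted p = 0.00773), lost without WT D11 pM replicate 3 (limma adjusted p = 0.0525). Orc6 and Gins1 were called at -0.95 ± 0.31 (limma adjusted p = 0.042) and -0.99 ± 0.30 (limma adjusted p = 0.0271), but Orc6 was not called without any 1 of the 4 D11 libraries or of the D9 replicates 2 and 3, nor Gins1 without any 1 of the same libraries other than D9 pM replicate 3 (highest limma adjusted p = 0.122 and 0.112). Without the 18 libraries Orc6 was at -0.40 (limma adjusted p = 0.317), Gins1 at -0.66 (limma adjusted p = 0.171) and Tyms at -0.87 (limma adjusted p = 0.112). The whole count of 27 was 16 without WT D11 pM replicate 2, and 12 when the 18 libraries were set aside, against 4.54% of all genes called in either direction.

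**Figure D2:**
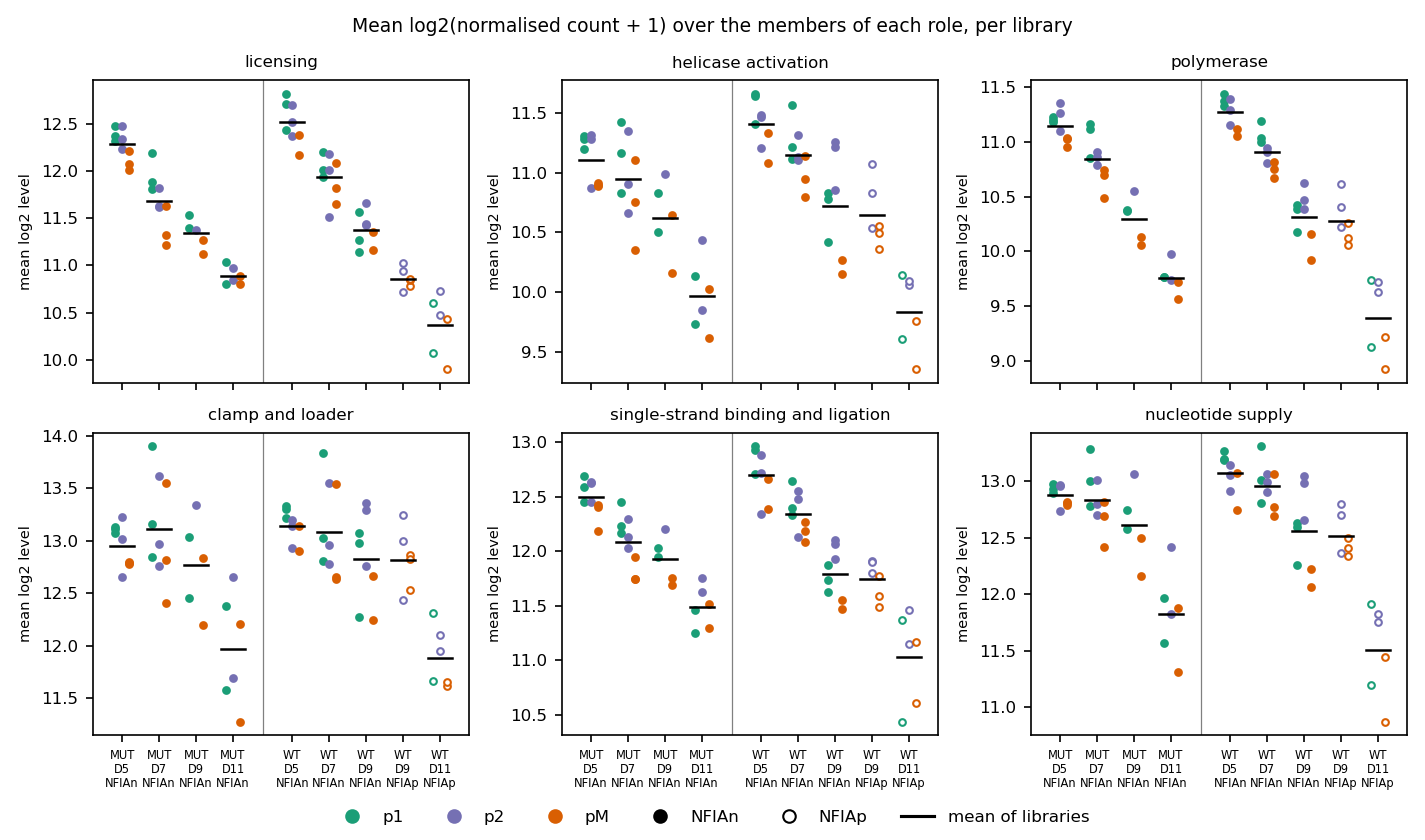
Each point is a library, its mean log2(normalised count + 1) over the genes of 1 role, by genotype, day and gate, with colours for domains, open circles for NFIAp and a line at the mean of the libraries. WT licensing genes have median log2 differences of -0.61, -0.61 and -0.47 at the 3 steps of 2 days and nucleotide supply genes -0.10, -0.45 and -1.07.

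Role and coding length went together in this set. Of the 41 genes 20 had a longest coding length under 1500 bases and 21 had one of 1500 bases or more, and the longer class held 9 of 10 licensing genes and none of the clamp and loader. All 13 genes called lower at D7 against D5 in WT were of the longer class, 13 of 21 against 0 of 20, where 14% of all tested genes of that length and 6.64% of shorter ones were lower. At D9 against D7 they were 20 of 21 longer and 4 of 20 shorter genes, and at D11 against D9 they were 12 of 21 longer and 15 of 20 shorter ones. The Spearman correlation between coding length and log2 difference over the 41 genes was -0.69, -0.69 and 0.45 at the 3 steps, against -0.29, -0.26 and 0.19 over the 14304 tested genes with a coding length, a description in which genes share libraries.

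Replicates of 1 day also differed with length. In replicate 3 of D7 set against replicates 1 and 2, 17 of the 20 shorter genes lay above 0 and 5 of the 21 longer ones, with median log2 differences of 0.72 and -0.44, and the Spearman correlation with coding length was -0.76. Gins2 and Tyms stood highest there, at 1.48 and 1.25, and Mcm3 lowest, at -0.86. For D9 replicates 2 and 3 set against replicate 1 the correlation was -0.62, and -0.44 over all tested genes. The D11 libraries, which are not among the 18 of raised total, differed with length too. For D11 replicate 3 set against replicate 2 the correlation was 0.67, and 0.33 over all tested genes. Median log2 differences at D11 were -0.22 for shorter and 0.37 for longer replication genes. Without the 18 libraries the median log2 differences of D7 minus D5 in WT were -0.25 for shorter and -0.37 for longer genes, where with them they were -0.04 and -0.53. For D9 minus D7 they were -0.30 and -0.78 for shorter and longer genes without them, and for D11 minus D9 they were -0.79 and -0.63. The comparison of D11 with D5 uses none of the 18 libraries. In it the 21 longer genes were called lower in each WT domain and in MUT. Of the 20 shorter ones 15, 9 and 13 were called in WT p1, p2 and pM and 18 in MUT. The Spearman correlation with coding length over the replication genes was -0.70, -0.73 and -0.66 in WT p1, p2 and pM. Over all tested genes it was -0.18, -0.20 and -0.14. In WT p1 the median log2 difference was -1.27 for shorter and -2.35 for longer replication genes. The part of length in these falls, and in their differences between roles, was not tested.

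**Figure D3:**
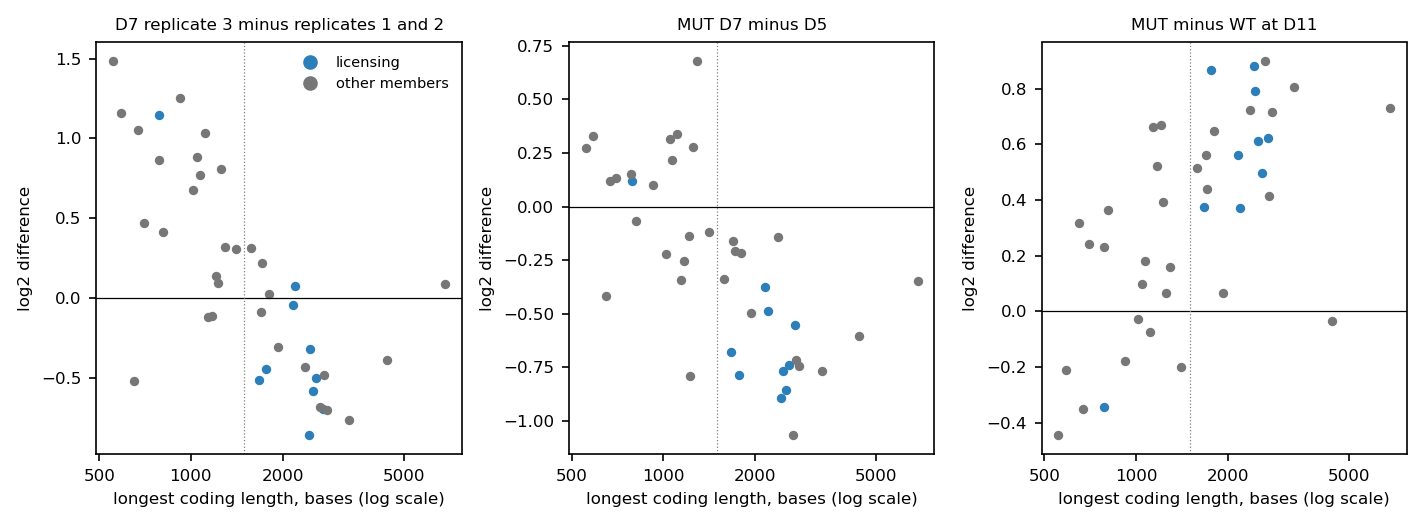
The log2 difference of each gene is plotted against its longest coding length in bases, on a log axis with a dotted line at 1500, for D7 replicate 3 minus replicates 1 and 2, for MUT D7 minus D5 and for MUT minus WT at D11, with licensing genes in blue. In the first panel 17 of 20 shorter and 5 of 21 longer genes lie above 0, and in the last 12 of the 14 called genes are of the longer class.

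In MUT progenitors the replication genes fell over the same days. Over all 3 domains 39 of 41 genes were lower at D11 than at D5, against 22% of all tested genes, with a median log2 difference of -1.11. The 2 not called were E2f1 and Rfc2. There were 6 libraries at D11 and 9 at D5. The count rests on more libraries than each WT domain, so the genotypes' counts are not set against each other.

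Licensing, helicase activation and polymerase genes were called in 10 of 10, 6 of 6 and 7 of 7 cases. Cdt1 had a lowest, median and highest value of 944, 1167 and 1335 in MUT D11 libraries, against 3007, 3960.5 and 4479 in MUT D5 libraries. Cdt1's log2 difference was -1.74 ± 0.14 (limma adjusted p = 1.26e-14). Cdc6 had 609, 795 and 1199 in MUT D11 libraries, against 1484, 2072 and 2942 in MUT D5 libraries. Cdc6's log2 difference was -1.40 ± 0.17 (limma adjusted p = 3.37e-09). For both, the days did not overlap. Orc1 had a log2 difference of -1.54 ± 0.25 (limma adjusted p = 1.11e-06) and Mcm2, a ring subunit, one of -1.06 ± 0.16 (limma adjusted p = 5.28e-07). Pola1, the catalytic subunit of polymerase alpha, fell most of the 41, with 179, 242 and 312 in MUT D11 libraries, against 863, 1116 and 1704 in MUT D5 libraries. Pola1's log2 difference was -2.30 ± 0.18 (limma adjusted p = 2.5e-15). Pcna had 4815, 6907 and 12622 in MUT D11 libraries and 12134, 15284 and 19735 in MUT D5 libraries, days that overlapped. Pcna's log2 difference was -0.99 ± 0.21 (limma adjusted p = 0.000138). Gins1, at -0.85 ± 0.25 (limma adjusted p = 0.00425), was not called without MUT D11 p2 replicate 3 (limma adjusted p = 0.0537).

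By steps of 2 days in MUT, at D7 set against D5, 17 genes were lower, against 14.3% of all tested genes, 9 of them licensing genes, and E2f1 was higher, against 16.5%. The 17 were 16 of 21 longer and 1 of 20 shorter genes, where 22.5% of longer and 8.67% of shorter tested genes were lower. Role and length were not separated. Without the 18 libraries of raised total the median log2 differences were -0.22 for shorter and -0.50 for longer genes, with a Spearman correlation of -0.55. E2f1 had 452, 626 and 836 in MUT D7 libraries, against 212, 381 and 595 in MUT D5 libraries, with a log2 difference of 0.68 ± 0.23 (limma adjusted p = 0.0246) that was lost without any 1 of 3 libraries (MUT D5 p1 replicate 1, MUT D7 p2 replicate 3 or MUT D7 pM replicate 3, highest limma adjusted p = 0.0634). At D9 set against D7, 4 were lower, against 4.78%, namely Cdt1 at -0.73 ± 0.15 (limma adjusted p = 0.000887), Pola1 at -0.99 ± 0.19 (limma adjusted p = 0.000347), Pole at -1.22 ± 0.18 (limma adjusted p = 6.79e-06) and Pole2 at -0.62 ± 0.16 (limma adjusted p = 0.00749). At D11 set against D9, 25 were lower, against 3.67%, among them 4 of 5 clamp and loader and 3 of 4 nucleotide supply genes. Tyms had 1029, 2243 and 4659.5 in MUT D11 libraries, against 2336, 5288 and 9432 in MUT D9 libraries, with a log2 difference of -1.29 ± 0.34 (limma adjusted p = 0.00985), and Gins2, a GINS subunit, one of -1.28 ± 0.39 (limma adjusted p = 0.0284). Both calls, and the count of 25, depended on single replicate 3 libraries. Without MUT D9 p1 replicate 3 or MUT D9 pM replicate 3 the count was 12 or 9, and without MUT D11 p1, p2 or pM replicate 3 it was 10, 11 or 9. In a fit on MUT D9 and D11 alone it was 1. Neither Tyms nor Gins2 was called without any 1 of these 5 (highest limma adjusted p = 0.0687 and 0.132). With a term for the 18 libraries of raised total Tyms was at -0.61 (limma adjusted p = 0.07) and Gins2 at -0.45 (limma adjusted p = 0.235). The count was 6, against 1.89% of all genes called in either direction, when libraries that share genotype, day and replicate number were given a common correlation, and Gins2 then had a limma adjusted p of 0.112. At MUT D11 against D5, 37 of the 46 further replication genes were lower, against 22% of all tested genes. The 2 that were higher stand against 28.2% of tested genes with a longest coding length under 1500 bases and 19.3% of longer ones. Neuronal markers summed to 30354 to 38767 in MUT D11 libraries, against 1696 to 11682 in MUT D5 libraries. Those of neural progenitors summed to 55847 to 125300 in MUT D11 libraries, against 16278 to 32417 in MUT D5 libraries.

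Few of these genes passed the test between MUT and WT before D11. At D5 and at D9 (NFIAn fractions) 0 of 41 passed the limma test, against 0.458% and 0.7% of all tested genes, with 9 and 5 at an unadjusted p under 0.05. At D5 DESeq2 called 1 (the limma count was also 1 without WT D5 p2 replicate 2) and edgeR 0, and at D9 both called 0. At D5 the limma count was 7 lower in MUT in a fit on the D5 libraries alone, against 2.8% of all genes called in either direction, and 6 with a term for the 18 libraries of raised total, against 1.43%. The log2 difference was below 0 for 36 of 41 genes at D5, for 32 at D7 and for 12 at D9. At D7, 2 were lower in MUT, against 1.25%. Cdc6 had 869, 1167 and 2044 in MUT D7 libraries, against 1112, 1915 and 2951 in WT D7 libraries. Cdc6's log2 difference was -0.57 ± 0.15 (limma adjusted p = 0.0394). Mcm5, a ring subunit, had 5414, 8991 and 12021 in MUT D7 libraries, against 9008, 11589 and 14022 in WT D7 libraries, with one of -0.48 ± 0.13 (limma adjusted p = 0.0472). The genotypes overlapped for both, and the calls rested on single libraries. Cdc6 was not called without any 1 of the MUT replicates 1 and 3 or the WT replicates 1 and 2, and Mcm5 without any 1 of the MUT replicates 1 and 3 or 7 of the 9 WT libraries, p1 replicate 2 and p2 replicate 3 being the exceptions (highest limma adjusted p = 0.119 and 0.114).

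At D11, some replication genes were higher in MUT NFIAn than in WT NFIAp libraries, with 14 of 41 called higher, against 1.8% of all tested genes, and none lower. The log2 difference was above 0 for 32 of 41, with a median of 0.39, against -0.0041 over all tested genes, and by domain it was above 0 for 30, 31 and 32 genes in p1, p2 and pM, with medians of 0.31, 0.37 and 0.58. Of the 14, 6 were licensing genes, with 2 each for helicase activation, polymerases and single-strand binding and ligation, 1 for nucleotide supply and 1 regulator, and none of the clamp and loader or chromatin assembly. There were 6 libraries of each genotype, and the WT ones are those that entered the WT comparison of D11 with D5.

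Cdc6 had a lowest, median and highest value of 609, 795 and 1199 in MUT D11 libraries, against 257, 437 and 680.1 in WT D11 libraries. Cdc6's log2 difference was 0.87 ± 0.19 (limma adjusted p = 0.00301). Mcm6 had 2799, 3858 and 4245 in MUT D11 libraries, against 1251, 2475 and 3176 in WT D11 libraries. Mcm6's log2 difference was 0.79 ± 0.17 (limma adjusted p = 0.00313). Mcm7, a ring subunit, had 4034, 5235 and 5742 in MUT D11 libraries, against 2920.1, 3483 and 3763 in WT D11 libraries. Mcm7's log2 difference was 0.56 ± 0.12 (limma adjusted p = 0.00321). Libraries of the genotypes overlapped for Cdc6 and Mcm6 and not for Mcm7, and the share of all tested genes without such overlap was not counted. These 3 calls held with any 1 library left out. Mcm3 had 1788, 2858 and 3612 in MUT D11 libraries, against 989, 1612 and 2079 in WT D11 libraries, with a log2 difference of 0.88 ± 0.22 (limma adjusted p = 0.00937), and Mcm2 and Mcm4 had log2 differences of 0.62 ± 0.18 (limma adjusted p = 0.0319) and 0.50 ± 0.15 (limma adjusted p = 0.0444). These last 3 overlapped. Mcm3 was lost without MUT D11 p1 replicate 3 or WT D11 p1 or pM replicate 2, and Mcm2 and Mcm4 without any 1 of the MUT replicates 3 or the WT replicates 2, Mcm2 also without MUT D11 pM replicate 2 (highest limma adjusted p = 0.0815, 0.178 and 0.253).

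Outside licensing, Rrm1 had 4051, 5563 and 6016 in MUT D11 libraries, against 1987, 3509.7 and 3959 in WT D11 libraries, groups that did not overlap. Rrm1's log2 difference was 0.72 ± 0.15 (limma adjusted p = 0.00237). Pola2, the second subunit of polymerase alpha, had 1183, 1395 and 1886 in MUT D11 libraries, against 612, 988 and 1215 in WT D11 libraries, with a log2 difference of 0.65 ± 0.13 (limma adjusted p = 0.00151) and some overlap. Both held with any 1 library left out. Pole had a log2 difference of 0.73 ± 0.18 (limma adjusted p = 0.0125), lost without WT D11 p2 replicate 3 (limma adjusted p = 0.063). Mcm10 was higher, at 0.90 ± 0.26 (limma adjusted p = 0.0325), Cdc45 at 0.56 ± 0.17 (limma adjusted p = 0.047), Lig1 at 0.72 ± 0.20 (limma adjusted p = 0.0249), Fen1 at 0.66 ± 0.17 (limma adjusted p = 0.0151) and Ccne2 at 0.67 ± 0.19 (limma adjusted p = 0.028). Each of these 5 overlapped between genotypes and was lost without WT D11 replicate 2 of any 1 domain. Lig1 was also lost without MUT D11 replicate 3 of any domain, Mcm10 without those or MUT D11 p2 replicate 2, and Fen1 without MUT D11 pM replicate 2. Ccne2 was lost without MUT D11 p1 replicate 2 or 3, p2 replicate 2 or pM replicate 3, and Cdc45 without WT D11 p2 replicate 3 or any MUT D11 library other than p2 replicate 3. Their highest limma adjusted p-values were 0.268 for Mcm10, 0.238 for Cdc45, 0.202 for Lig1, 0.125 for Fen1 and 0.205 for Ccne2. Pcna had 4815, 6907 and 12622 in MUT D11 libraries, against 5058, 6718 and 9146 in WT D11 libraries, and its log2 difference of 0.23 ± 0.23 (limma adjusted p = 0.645) did not pass the test. Rrm2 and Chaf1b, at 0.52 ± 0.18 (limma adjusted p = 0.0996) and 0.44 ± 0.17 (limma adjusted p = 0.139), did not pass either.

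The count of 14 was 6 without WT D11 p1 or pM replicate 2, 7 without WT D11 p2 replicate 2 or MUT D11 p1 replicate 3, and 8 without MUT D11 pM replicate 3. It was 2 (Pola2 and Rrm1, limma adjusted p = 0.0363 and 0.046) with the common correlation, 0 in a fit on the D11 libraries alone and 9 by edgeR on the recovered reads. Of the 14 genes 12 were of the longer coding class, 12 of 21 against 2 of 20 (Fen1 and Ccne2), where 2.12% and 1.61% of all tested genes of these lengths were higher, and the Spearman correlation with coding length was 0.66 over the 41 and 0.26 over all tested genes. The part of length in the difference was not tested. Beside these genes, 3 of the 46 further replication genes were higher in MUT, against 1.8% of all tested genes, led by Ticrr, which helps fire origins, at 0.92 ± 0.27 (limma adjusted p = 0.0404). Of 7 inhibitors of cyclin-dependent kinases, Cdkn1a (p21) was higher, at 1.02 ± 0.13 (limma adjusted p = 1.93e-07), and Cdkn1c (p57) lower, at -1.58 ± 0.37 (limma adjusted p = 0.00629). Neuronal markers summed to 30354 to 38767 in MUT D11 libraries and 23683 to 45684 in WT D11 libraries, with 1 of 14 higher in MUT, and mesenchymal markers to 975 to 5435 in MUT D11 libraries and 1319 to 7474 in WT D11 libraries, with 0 of 10 called.

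The D11 minus D5 change was smaller in MUT than in WT for 3 of 41 genes by the test of the difference of changes, against 0.293% of all tested genes, and all 3 were licensing genes. The difference of changes was 1.23 ± 0.25 (limma adjusted p = 0.00494) for Cdc6, 0.92 ± 0.23 (limma adjusted p = 0.0398) for Mcm2 and 0.65 ± 0.16 (limma adjusted p = 0.0372) for Mcm7. In Cdc6 the log2 change was -1.60 in MUT and -2.78 in WT in p1, -1.27 in MUT and -2.35 in WT in p2, and -1.34 in MUT and -2.75 in WT in pM, so that it was smaller in MUT in each domain. The sign was the same for 38 of 41 genes, with a median of 0.56, and 3 of them passed the test. Leaving out 1 library at a time gave 15 calls without WT D11 p1 replicate 3, 12 and 5 without that of pM and of p2, and 6 without replicate 2 of WT D5 p1 or p2. It gave 1, that of Cdc6, without any 1 of MUT D11 p1 replicate 3, MUT D11 pM replicate 2, replicates 2 and 3 of MUT D5 in every domain, replicate 2 of WT D11 in every domain, replicates 1 and 3 of WT D5 p1 and p2, and WT D5 pM replicate 3. The Cdc6 call held throughout, and those of Mcm2 and Mcm7 were lost without any 1 of 19 and of 18 of the 29 libraries (highest limma adjusted p = 0.165 and 0.143). With the common correlation 0 of 41 were called, and the limma adjusted p of Cdc6 was 0.156.

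**Figure D4:**
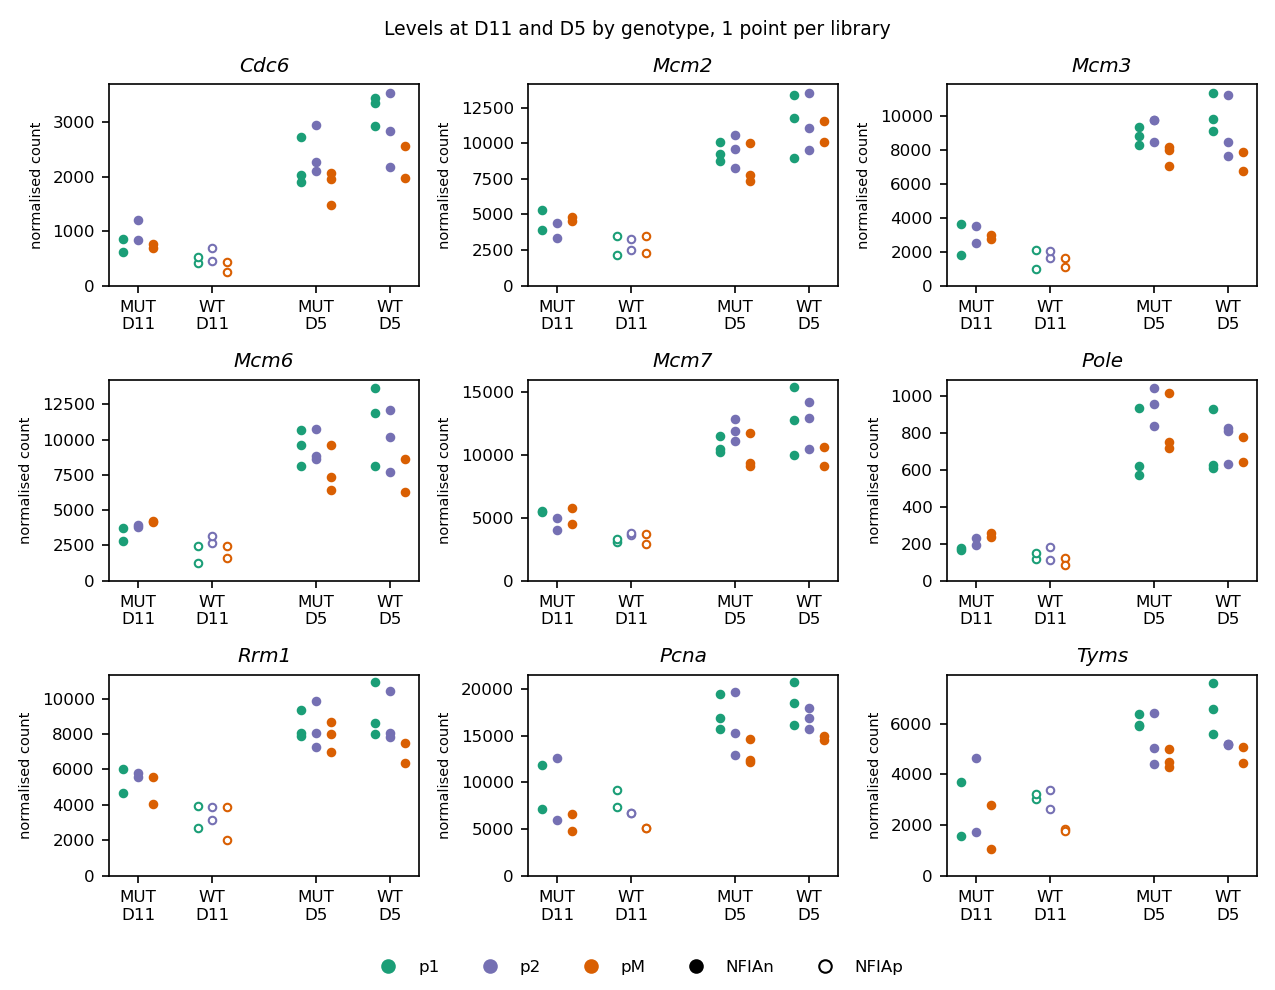
Each point is a library's normalised count for 9 genes, at D11 and D5, MUT beside WT, with colours for domains and open circles for NFIAp. The MUT and WT libraries of D11 do not overlap for Mcm7 and Rrm1, while those of Pcna do.

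Between domains, the values leaned lower in pM than in p2, and how many genes passed the test depended on how libraries of the same replicate number were treated. Over the days, 0 of 41 differed between p2 and p1 in MUT or in WT by limma, against 0.598% of all tested genes in MUT and 1.83% in WT, with 3 in MUT and 1 in WT at an unadjusted p under 0.05 and 0 by edgeR or DESeq2 in either genotype. In pM, 1 gene was lower than in p2 in MUT, against 1.75%, and 4 were in WT, against 1.77%. With the common correlation the counts were 16 in MUT and 18 in WT, all lower in pM, where 9.98% of all genes in MUT and 6.18% in WT were called in either direction. The log2 difference was below 0 for 41 of 41 genes in MUT and 40 in WT, with medians of -0.33 in MUT and -0.35 in WT. Ccne2 was called in both genotypes, at -0.73 ± 0.16 (limma adjusted p = 0.00333) in MUT and -0.72 ± 0.15 (limma adjusted p = 0.0019) in WT, and both calls held with any 1 library left out. At D5 it had 1676 and 1433 in WT pM libraries, against 1771, 1382 and 1415 in WT p2 libraries, and at D11 290.3 and 492 in WT pM libraries, against 557 and 811 in WT p2 libraries. The domains overlapped at D5 and not at D11. The other 3 in WT were Cdc6 at -0.58 ± 0.15 (limma adjusted p = 0.0195), Cdc45 at -0.54 ± 0.13 (limma adjusted p = 0.0166) and Rpa1 at -0.35 ± 0.10 (limma adjusted p = 0.0373), and these calls rested on single libraries. Cdc6 was lost without WT D9 pM NFIAn replicate 3, WT D11 p2 replicate 3, or replicate 2 of WT pM at D5 or D11. Cdc45 was lost without WT D9 pM NFIAn replicate 1 or replicate 2 of WT pM at D5 or D11, and Rpa1 was lost without any 1 of 11 of the 20 libraries (highest limma adjusted p = 0.13, 0.111 and 0.197, each without WT D11 pM replicate 2). The WT count of 4 was 1 without replicate 2 of WT pM at D5 or at D11. It was 2 without WT D9 pM NFIAn replicate 3 or WT D11 p2 replicate 3, 10 without WT D11 pM replicate 3 and 7 without WT D7 p2 replicate 3. The MUT count of 1 was 3 without MUT D11 pM replicate 2 and 2 without MUT D5 p2, MUT D5 pM or MUT D7 p2 replicate 3.

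Within WT D9, where the same domains were sorted into both NFIA fractions, 0 of 41 genes passed the limma test between NFIAp and NFIAn in p2 and pM, against 0.204% of all tested genes, with 9 at an unadjusted p under 0.05. DESeq2 called 4 and edgeR 0. With the common correlation 5 were called, against 2.89% of all genes in either direction, and with a term for the 18 libraries of raised total also 5, against 1.13%, all of them lower in NFIAp. All 10 licensing genes had a log2 difference below 0, with a median of -0.44, and the medians of the other 7 roles lay between -0.08 and 0.12. Orc1 had 121, 134 and 190.2 in WT D9 p2 NFIAp libraries and 147, 169 and 167 in WT D9 pM NFIAp libraries, against 340.4, 223 and 376 in WT D9 p2 NFIAn libraries and 286 and 528 in WT D9 pM NFIAn libraries. Orc1's log2 difference was -1.17 ± 0.29 (limma adjusted p = 0.0616). Mcm2 had 3108, 2957 and 2982 in WT D9 p2 NFIAp libraries and 2978, 3607 and 3379.8 in WT D9 pM NFIAp libraries, against 4656, 4609.8 and 6309.9 in WT D9 p2 NFIAn libraries and 5299 and 5489 in WT D9 pM NFIAn libraries. Mcm2's log2 difference was -0.74 ± 0.19 (limma adjusted p = 0.0865). Neither gene's fractions overlapped, nor did those of Mcm6, with a log2 difference of -0.39. The share of all tested genes without such overlap was not counted, so the lack of overlap is a description only. Orc1 was called without WT D9 pM NFIAn replicate 1 (limma adjusted p = 0.0331), and Mcm2 was not called with any 1 library left out (lowest limma adjusted p = 0.0648). Both were called with the common correlation (limma adjusted p = 0.00211 for Orc1 and 0.000597 for Mcm2), with the term (limma adjusted p = 0.0271 and 0.0147) and by DESeq2 (adjusted p = 0.00773 and 0.0161). Of the 24 genes of G2 and M phase 4 were higher in NFIAp, with a median log2 difference of 0.75, led by Cdk1, the mitotic kinase, at 1.12 ± 0.20 (limma adjusted p = 0.00314). The difference between these lists was not tested. Mesenchymal markers summed to 174 to 3478 in WT D9 NFIAp libraries, against 77.6 to 548 in WT D9 NFIAn libraries of all domains.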

How the data were processed

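RNA of sorted progenitors was measured by sequencing in 66 libraries. The authors deposited a table of signal values, gene counts divided by a size factor per library, and the submitters' processing notes name DESeq2 and mm10 without a version. The values of every library could be turned back into whole reads (100% within 0.01), at 8.74 to 30.8 M a library. The name of the deposited table holds featurecounts, and the settings of the counting step, such as strand, are not given in the sources used here. Symbols were read from the table, and every column matched a sample by its title. The 41 genes, the gene lists and the tests were chosen with earlier results of these data known.

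Genes with 10 or more normalised counts in at least 2 libraries were kept (15714). The test was limma 3.58.1 (R 4.3.3, trend) on log2(normalised count + 1), with 1 mean per group over all 66 libraries and domains weighted equally, and Benjamini-Hochberg adjustment over all tested genes, called at an adjusted p under 0.05. A fold change on this scale understates the change of low genes. The lone MUT D9 p2 library is assumed to vary like the other groups. WT D9 was taken as NFIAn against D7 and as NFIAp of p2 and pM against D11. Alternatives were a pseudocount of 8, no filter, TMM scaling, replicate terms, libraries left out 1 at a time, a fit on the compared groups alone, and edgeR 4.0.16 and DESeq2 1.42.0 on the recovered reads. A model term for the 18 libraries of raised normalised total was added after seeing the data. The procedure was tested on simulated data in which libraries varied independently. That simulation held neither a correlation between libraries of the same replicate number nor a shift with coding length, so it does not bear on their effect.

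Genes shown with values were set per role by a rule, which also named the largest and smallest difference of a role in a comparison and any gene called against the majority. Other genes of the 41 were named after their values were seen. Coding length is the longest annotated in GENCODE vM21, and promoters are RefSeq windows. No pair of replicates was found to be 1 library deposited as 2 (55 pairs compared). Each ± is the standard error of the limma fit.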

Additional observations from a re-analysis of the deposited data

Results flagged for a closer look

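Cdc6, Mcm2 and Mcm7 are listed because their D11 minus D5 change differed between MUT and WT by the test of that difference. The MUT change minus the WT change was 1.225 on the log2 scale for Cdc6 (limma adjusted p = 0.00494), 0.9236 for Mcm2 (limma adjusted p = 0.0398) and 0.6489 for Mcm7 (limma adjusted p = 0.0372). The change was smaller in MUT for each. The Cdc6 call held with any 1 library left out, while those of Mcm2 and Mcm7 were lost without any 1 of 19 and of 18 of the 29 libraries (highest limma adjusted p = 0.165 and 0.143). With a common correlation for libraries that share genotype, day and replicate number, none of the 3 was called (limma adjusted p = 0.156, 0.279 and 0.357). MUT D11 libraries were NFIAn and WT D11 libraries NFIAp, so genotype and gate cannot be told apart in these values.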

How the results depend on the processing

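Over 1821 repeats of 88 named differences none changed sign, while 249 lost and 37 gained the threshold, 175 and 5 of them with 1 library left out. The counts of called genes are given here where a repeat moved them by over 1.5 times. For the difference of changes (3) the count was 6 with a pseudocount of 8, 5 with no filter, 7 by DESeq2, 6 with a replicate block, 0 with the common correlation, 5 without the 18 libraries of raised total and 14 with a term for them. MUT minus WT at D11 (14) gave 2 with the common correlation, 0 in a fit on the compared groups alone and 9 by edgeR. At D7 (2) it gave 1 under TMM, 1 without the 18 libraries, and 0 with the common correlation or on the compared groups alone, and at D5 (0) it gave 1 with a replicate block, without the 18 libraries or by DESeq2, 6 with their term and 7 on the compared groups alone. MUT D11 minus D9 (25) gave 6 with the common correlation and 1 on the compared groups alone, MUT D9 minus D7 (4) gave 14 with the term, and WT D11 minus D9 (27) gave 12 without the 18 libraries. WT pM minus p2 (4) gave 18 with the common correlation, 14 with the term, 2 without the 18 libraries and 1 on the compared groups alone, and MUT pM minus p2 (1) gave 16 with the common correlation, 8 with the term, and 2 with no filter, with a replicate block, by DESeq2 or on the compared groups alone. WT p2 minus p1 (0) gave 1 with the common correlation, and the NFIAp minus NFIAn comparison (0) gave 5 with it, 5 with the term and 4 by DESeq2. With 1 library left out the ranges were 9 to 27 for MUT D11 minus D9, 16 to 28 for WT D11 minus D9, 6 to 17 for MUT minus WT at D11, 0 to 3 at D7, 0 to 1 at D5, 1 to 15 for the difference of changes, 1 to 3 for MUT and 1 to 10 for WT pM minus p2, and 0 to 1 for NFIAp minus NFIAn. Counts of WT D11 minus D5 in each domain, of the first 2 WT steps, of MUT D11 and D7 minus D5, of MUT minus WT at D9 and of MUT p2 minus p1 stayed within 1.5 times where a repeat was possible. Libraries were not paired by replicate number in the main fit, because the rule set for it asked that every same-numbered pair correlate at over 0.1. The lowest pair of different domains stood at 0.009. Same-numbered libraries of different domains correlated at over 0.1 in 52 of 69 pairs, among them all of those at D7 and in MUT at D9 and D11. Those of different genotypes did so in 19 of 29, of different gates in 3 of 5 and of different days in 20 of 86. The common correlation was 0.375, so libraries that share genotype, day and replicate number tended to deviate together, while the main fit treats them as independent. Under the replicate block 4 of the 88 differences gained a call and 0 lost one. Leaving out the 18 libraries was not possible for comparisons that need MUT D9 p2, nor was leaving out that single library. Groups hold 1 to 3 libraries, which limits the precision of every value.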
